A study of Mus musculus with 4 samples.

Results

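The mitochondrial solute carriers are the proteins that move metabolites, nucleotides, phosphate, cofactors and metals across the inner mitochondrial membrane, and most are encoded by the Slc25a gene family. Members were taken by gene symbol from the annotation of the array platform: symbols that start with Slc25a, apart from 3 genes that are not reported here, together with the uncoupling proteins Ucp1 and Ucp3 and the outer membrane relatives Mtch1 and Mtch2. This gave 40 of the 16593 genes measured, and Ucp2 is not analysed here. The rule itself uses gene symbols and no expression value, although it was written with earlier results of these data known. Each was read on the probe with the highest mean intensity over the 4 arrays.

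The study measured RNA of whole liver on Illumina expression arrays, 1 array per sample. The 2 TAK1 KO samples carry a floxed TAK1 gene plus a Cre transgene under the albumin promoter (Alb-Cre/ TAK1 flox), which is active in hepatocytes, and the 2 WT samples carry the floxed gene without Cre (TAK1 flox). All 4 came from untreated mice of the C57BL/6 strain, labelled male and 4 weeks old, on free access to chow. TAK1 is a kinase, encoded by Map3k7, that relays signals of inflammatory receptors, and the 2 groups set livers whose hepatocytes were made to lose it against livers that keep it. Cre and the deletion differ together between the groups, and nothing in the labels states that the samples of a group came from separate animals, so p-values measure only the spread between these samples, which may be technical.

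Members of this family share a fold in which a repeated domain lines a central path through the membrane, and most exchange a solute of the matrix for one of the space outside it. In hepatocytes they join the mitochondrial and cytosolic steps of fat synthesis, gluconeogenesis, nitrogen disposal and ATP export. The uncoupling proteins let protons leak back into the matrix, and the outer membrane relatives are not known as solute carriers.

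Between 40.6% and 40.9% of the 25697 probes on each array lay above 100 units, the level used here as a floor. Map3k7 read 125.3 and 117.9 units in TAK1 KO liver and 155 and 138.4 units in WT liver. The log2 difference of -0.26 ± 0.10 (SE, 2 arrays in each group) missed the threshold of limma's test (adjusted p = 0.116). Every SE given here is limma's moderated one. It draws on the spread of all genes as well as on the gene's own arrays, so it is not the spread of those arrays alone. Whether the probe lies inside the deleted stretch is unknown, and a reading from outside it would say nothing about the genotype labels. Of 10 hepatocyte markers 9 lay above 100 units on at least 2 arrays, while the probe of Fgb lay below the floor on all arrays and that of Alb read 214.4 and 190.5 units in TAK1 KO liver and 206.5 and 197.6 units in WT liver. Xist, the RNA of the inactive X chromosome, read between 575 and 853.4 units over the 4 arrays, although the labels give every sample as male. Eif2s3y and Kdm5d, which are Y-linked, read at most 69.3 and 59.7 units, while Uty, Y-linked as well, read between 112.4 and 142.2 units over the 4 arrays.

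Of the 40 carriers 2 were higher in TAK1 KO liver and 6 were lower. The dicarboxylate carrier Slc25a10 and the glutathione carrier Slc25a39 rose, by 1.30-fold and 1.28-fold. Slc25a42, Mtch2, Slc25a47, Slc25a16, Slc25a44 and Slc25a25 fell, by 1.32-fold to 1.67-fold. The fall of Mtch2 was seen only on the brightest of its 3 probes, and the others gave log2 differences of -0.019 and -0.031. Changes are log2 differences of background-corrected intensities, and a gene passed where limma's Benjamini-Hochberg adjusted p over all 16593 genes was below 0.05. By that test 18.2% of all genes passed in either direction, 10.5% upward and 7.71% downward, so the share of carriers that passed was close to that of all genes measured. The median log2 difference of the 40 carriers was -0.10, and that of all genes was -0.0036. The readings of the 2 groups did not overlap in 24 of the 40 carriers, and 53.7% of all genes were apart in this way. A fit without 1 array leaves that group with a lone sample, which is assumed to vary like the pair of the other group. In such fits the calls moved with the WT arrays: without WT replicate 1 there were 0 rises and 5 falls, and without WT replicate 2 there were 0 rises and 3 falls, while the genes that passed in all numbered 1827 and 1800 in place of 3022. With a smaller background offset of 16 there were 0 rises and 4 falls, and the fits without an array gave up to 9 falls, without TAK1 KO replicate 1.

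Only 24 of the 40 carriers lay above 100 units on at least 2 arrays, 23 of them on all 4. None entered this set through 1 group alone, since the gene above the floor on only 2 arrays, Slc25a14, was above it on 1 array of each group. Every gene that passed was among these 24. In all genes above the floor 36.7% passed, 20.8% upward and 15.8% downward, and the 2 rises and 6 falls are to be read against those shares. The median log2 difference was -0.15 over these 24 carriers and 0.011 over all 7791 genes above the floor. The 2 groups of arrays did not overlap in 17 of the 24 carriers, and 71.7% of all genes above the floor were apart in the same way. Their median SD within groups was 0.10 on the log2 scale, as it was for all genes above the floor, and their median absolute difference was 0.25, as it was for those genes. In whole liver, fewer cells of a type and less RNA per cell cannot be told apart.

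**Figure D1:**
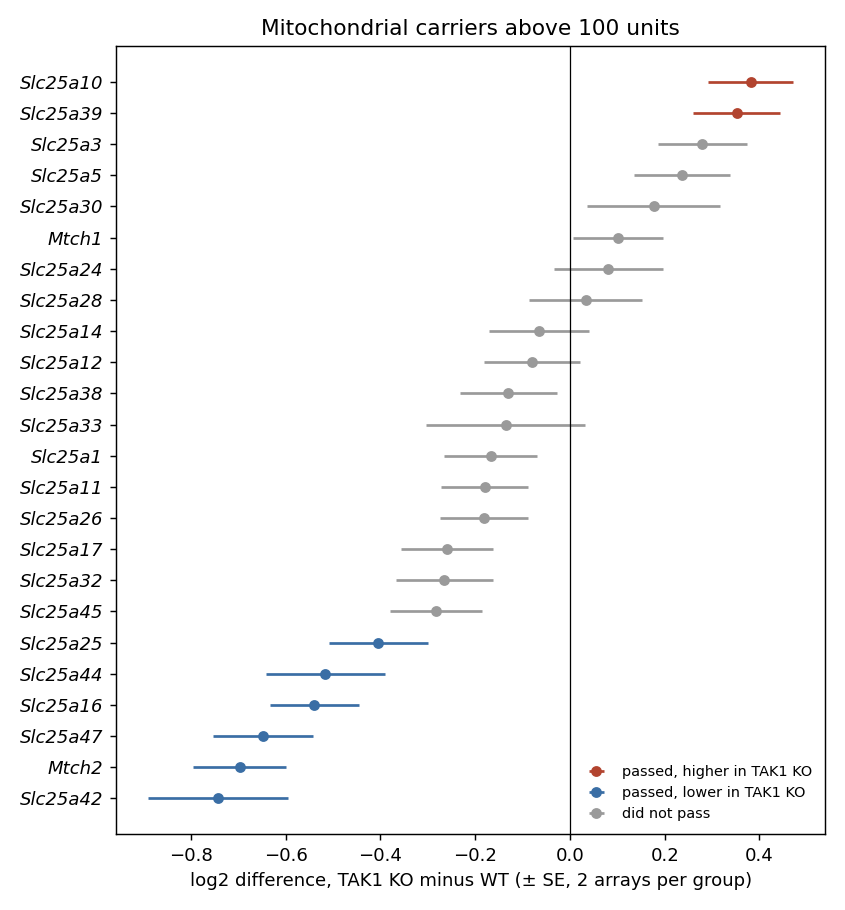
Log2 difference between TAK1 KO and WT liver (x axis, TAK1 KO minus WT, bars are limma's moderated SE, n = 2 per group) for the 24 carriers above 100 units on at least 2 arrays. Slc25a10 at 0.38 and Slc25a39 at 0.35 passed upward, 6 genes between -0.40 and -0.74 passed downward, and the 16 grey points between them did not pass.

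**Figure D2:**
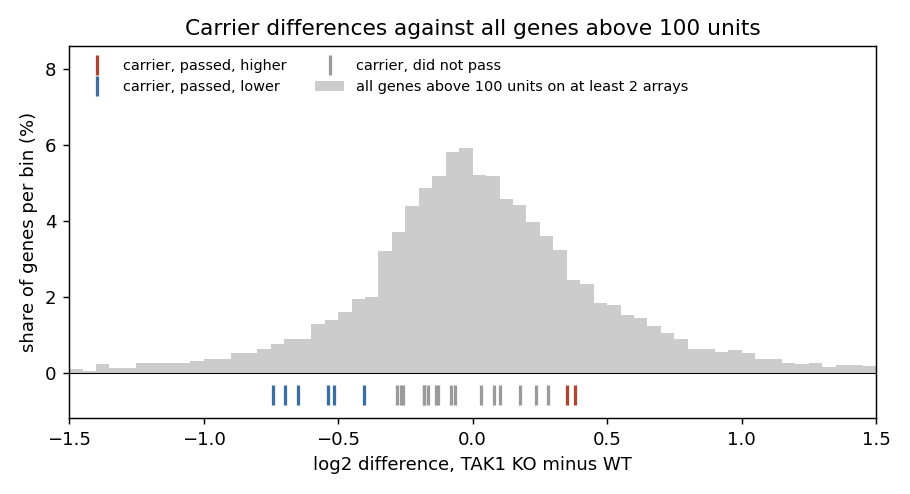
Share of the 7791 genes above the floor in each bin of 0.05 of the log2 difference (grey bars, y axis in percent), with each of the 24 carriers as a tick below. The carriers lie between -0.74 and 0.38, inside the range that most genes cover, and 171 genes beyond 1.5 either way are not drawn.

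Promoter windows of members that passed are shown first, so that the base composition behind the family can be seen beside the values. RefSeq's promoter table (GRCm38.p6) held windows of 300 bases, from 250 before to 50 after a start site, for 33 of the 40 carriers. The 4 windows below belong to both carriers that rose and to Slc25a47 and Slc25a16, which fell under every alternative setting. They lie on chr11:120491587-120491886 (plus strand, Slc25a10), chr11:102407468-102407767 (minus strand, Slc25a39), chr12:108850879-108851178 (plus strand, Slc25a47) and chr10:62920383-62920682 (plus strand, Slc25a16). Capitals mark GC boxes (GGGCGG) and CCAAT boxes (CCAAT), on either strand.
Slc25a10: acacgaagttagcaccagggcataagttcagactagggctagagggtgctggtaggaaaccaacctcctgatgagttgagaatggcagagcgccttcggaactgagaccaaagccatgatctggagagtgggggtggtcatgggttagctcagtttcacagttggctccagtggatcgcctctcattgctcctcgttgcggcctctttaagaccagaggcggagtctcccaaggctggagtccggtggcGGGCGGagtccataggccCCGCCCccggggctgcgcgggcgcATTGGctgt
Slc25a39: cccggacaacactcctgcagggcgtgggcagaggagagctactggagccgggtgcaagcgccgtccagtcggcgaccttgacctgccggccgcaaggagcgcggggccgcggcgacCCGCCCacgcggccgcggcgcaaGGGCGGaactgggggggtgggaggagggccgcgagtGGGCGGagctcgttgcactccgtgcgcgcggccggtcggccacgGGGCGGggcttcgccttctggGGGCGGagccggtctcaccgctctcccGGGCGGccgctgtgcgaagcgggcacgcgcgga
Slc25a47: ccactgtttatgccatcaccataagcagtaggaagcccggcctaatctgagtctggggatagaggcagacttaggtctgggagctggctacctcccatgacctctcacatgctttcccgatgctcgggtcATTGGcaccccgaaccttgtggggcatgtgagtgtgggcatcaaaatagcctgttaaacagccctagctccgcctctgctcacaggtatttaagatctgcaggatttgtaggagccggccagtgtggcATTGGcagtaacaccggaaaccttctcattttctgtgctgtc
Slc25a16: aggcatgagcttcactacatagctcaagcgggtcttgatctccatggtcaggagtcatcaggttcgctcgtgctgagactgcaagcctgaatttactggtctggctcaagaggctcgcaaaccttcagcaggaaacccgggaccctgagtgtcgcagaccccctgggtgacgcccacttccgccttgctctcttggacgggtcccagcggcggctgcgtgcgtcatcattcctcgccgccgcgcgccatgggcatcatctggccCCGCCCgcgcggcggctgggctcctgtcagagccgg
The window of Slc25a39 held 6 GC boxes in a sequence that is 77.3% G and C. That of Slc25a10 held 2 GC boxes and 1 CCAAT box, that of Slc25a16 held 1 GC box, and that of Slc25a47 held 2 CCAAT boxes and no GC box. Over all 42 windows of the carriers 81.0% held a GC box, against 35.7% of the 32851 windows in the table, many of which belong to noncoding genes. A CCAAT box was in 42.9% of the carriers' windows, against 37.4% of all windows, and the TATA box TATAAA was in 4.76%, against 13.6%. Of 3 further motifs, searched on both strands, the E-box CACGTG was in 14.3% of the carriers' windows, against 7.15% of all windows. The nuclear receptor half-site AAGGTCA was in 4.76%, against 4.72%, and the NRF1 core GCATGCG in 4.76%, against 3.58%. No 2 different motifs overlapped in any of these windows, while matches of the same motif could share bases and were each counted. The median share of G and C was 59.7% in the carriers' windows and 52.7% in all windows. These matches are descriptions of letters, not of binding.

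Among carriers of nucleotides and phosphate, 1 of 8 fell and 0 rose. Slc25a5, the ADP/ATP translocase of most tissues, read 13236.9 and 14106.6 units in TAK1 KO liver and 10901.4 and 12344.4 units in WT liver. Both TAK1 KO arrays lay above both WT arrays, but the log2 difference of 0.24 ± 0.10 (SE) did not pass (limma adjusted p = 0.165). The phosphate carrier Slc25a3, which brings in the phosphate that ATP synthase uses, read 6485 and 6842.4 units in TAK1 KO liver and 5637.8 and 5338.7 units in WT liver. The groups were again apart, and the log2 difference of 0.28 ± 0.09 (SE) missed the threshold (limma adjusted p = 0.0739), which it passed with quantile normalization added (0.0472).

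Slc25a25 is a calcium-regulated carrier that exchanges ATP-Mg for phosphate and so sets the size of the matrix adenine nucleotide pool. It read 1718.3 and 1783.8 units in TAK1 KO liver and 2145.8 and 2506.5 units in WT liver. Both TAK1 KO arrays were lower than both WT arrays, and the log2 difference was -0.40 ± 0.10 (SE, limma adjusted p = 0.0262). The call was lost without WT replicate 2, the brighter WT array (limma adjusted p = 0.194) and with the smaller background offset (0.110). Its relative Slc25a24 read 136.6 and 139 units in TAK1 KO liver and 116.2 and 145.2 units in WT liver, groups that overlapped.

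The pyrimidine nucleotide carrier Slc25a33 overlapped as well, with 244.9 and 309.4 units in TAK1 KO liver and 360 and 254.7 units in WT liver. Slc25a36, a carrier of pyrimidine nucleotides too, lay above the floor on 1 array only (95.5 and 111.8 units in TAK1 KO liver, 95.7 and 89 units in WT liver). Slc25a31, the ADP/ATP translocase of male germ cells, and the ATP-Mg carrier Slc25a41 were below the floor on all 4 arrays.

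Carriers of cofactors and of iron gave 1 rise and 2 falls among 8 genes. Slc25a39, which mitochondria need to take up glutathione, read 1316.1 and 1339 units in TAK1 KO liver and 1064.5 and 1014.5 units in WT liver. The groups were apart, and the log2 difference was 0.35 ± 0.09 (SE, limma adjusted p = 0.0263). The log2 difference stayed between 0.32 and 0.39 under every alternative, but it missed the threshold without WT replicate 1 (limma adjusted p = 0.0907), WT replicate 2 (0.158) or TAK1 KO replicate 2 (0.0629), and with the smaller background offset (0.134). Slc25a40, its close relative, stayed below the floor on all 4 arrays.

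Slc25a42 carries coenzyme A into the matrix, as shown for the human protein. It read 175.6 and 123.9 units in TAK1 KO liver and 240.8 and 259.1 units in WT liver, and the TAK1 KO arrays also differed from each other. The log2 difference of -0.74 ± 0.15 (SE, limma adjusted p = 0.00740) was the largest of the family in size with all 4 arrays, though not without TAK1 KO replicate 2. It missed the threshold without WT replicate 1 (log2 difference -0.79, limma adjusted p = 0.0586) and without WT replicate 2 (-0.69, 0.0890). Without TAK1 KO replicate 1 and TAK1 KO replicate 2 it was -0.99 and -0.50, and it passed in both.

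Slc25a16, a carrier linked to coenzyme A by its yeast relative, read 1140.4 and 1055.4 units in TAK1 KO liver and 1598.5 and 1593.9 units in WT liver. The groups were far apart for their spread, with a log2 difference of -0.54 ± 0.09 (SE, limma adjusted p = 0.00347). With 1 array left out it ranged from -0.59 to -0.48. Slc25a17, which moves cofactors across the membrane of peroxisomes rather than of mitochondria, read 1296.8 and 1441 units in TAK1 KO liver and 1613.7 and 1661.8 units in WT liver. These groups were apart too, with a log2 difference of -0.26 ± 0.10 (SE) that did not pass (limma adjusted p = 0.109).

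The flavin and folate carrier Slc25a32 read 201.3 and 172.5 units in TAK1 KO liver and 224.8 and 224.7 units in WT liver, and its log2 difference of -0.26 ± 0.10 (SE) did not pass (limma adjusted p = 0.125). The S-adenosylmethionine carrier Slc25a26 read 240.5 and 231 units in TAK1 KO liver and 276.7 and 259.5 units in WT liver, and did not pass (limma adjusted p = 0.255). Slc25a28, which imports iron for haem and iron-sulphur clusters, overlapped between the groups, with 1202.4 and 1439.4 units in TAK1 KO liver and 1197.8 and 1379.9 units in WT liver.

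Of 4 carriers of di- and tricarboxylates 1 rose and 0 fell. Slc25a10, which exchanges malate or succinate for phosphate, read 1070.6 and 1092.6 units in TAK1 KO liver and 829.3 and 828.6 units in WT liver. Arrays of a group lay close together, and the log2 difference was 0.38 ± 0.09 (SE, limma adjusted p = 0.0167), or 0.0992 with the smaller background offset. With 1 WT array left out the difference kept its size (0.38 without either), but the adjusted p no longer passed (0.0936 without WT replicate 1 and 0.0948 without WT replicate 2).

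The citrate carrier Slc25a1, which supplies cytosolic acetyl-CoA for fat synthesis, read 904.6 and 1016.2 units in TAK1 KO liver and 1082.3 and 1071.5 units in WT liver. The oxoglutarate carrier Slc25a11 of the malate-aspartate shuttle read 852.3 and 897.9 units in TAK1 KO liver and 1004.1 and 979.5 units in WT liver. Both genes had lower TAK1 KO arrays, with log2 differences of -0.17 ± 0.10 and -0.18 ± 0.09 (SE), and neither passed (limma adjusted p = 0.335 and 0.252). Their 95% intervals, before any adjustment, ran from -0.39 to 0.055 for Slc25a1 and from -0.39 to 0.027 for Slc25a11. Slc25a21, a carrier of longer oxodicarboxylates, stayed below the floor.

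Among carriers of amino acids 1 of 6 fell and 0 rose. Slc25a44, which imports branched-chain amino acids in brown fat, read 282.2 and 301.1 units in TAK1 KO liver and 368.8 and 475.1 units in WT liver. The groups were apart, with WT replicate 2 well above the other arrays, and the log2 difference was -0.52 ± 0.13 (SE, limma adjusted p = 0.0199). Without WT replicate 2 it was -0.34 and did not pass (limma adjusted p = 0.149), and with the smaller background offset the adjusted p was 0.0535.

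Slc25a38, the glycine carrier that haem synthesis in red cell precursors needs, read 1401.2 and 1592.4 units in TAK1 KO liver and 1692.8 and 1579.7 units in WT liver, and the groups overlapped. Slc25a12, an aspartate and glutamate carrier, overlapped too, with 160.2 and 139.3 units in TAK1 KO liver and 161.2 and 155 units in WT liver. The glutamate carriers Slc25a18 and Slc25a22 and the basic amino acid carrier Slc25a29 stayed below the floor on every array.

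No uncoupling protein or relative passed among the 5 measured. Ucp1, which makes heat in brown fat, read 59 and 67.7 units in TAK1 KO liver and 60.5 and 63.6 units in WT liver, all below the floor, and the muscle form Ucp3 was below it as well. The 5 adipocyte markers, Adipoq, Fabp4, Plin1, Cidea and Lep, were below the floor on all 4 arrays. Slc25a30, a relative of the uncoupling proteins, read 149.5 and 117.9 units in TAK1 KO liver and 130.6 and 104.6 units in WT liver, so that arrays of the same group differed more than the groups did. Slc25a14 read between 98.6 and 116.8 units over the 4 arrays without a difference that passed (limma adjusted p = 0.795), and Slc25a27 stayed below the floor.

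Of the 6 other inner membrane members 1 fell. Slc25a47 is a carrier found mainly in liver. It read 7968.8 and 6829.7 units in TAK1 KO liver and 11236.9 and 11901.6 units in WT liver. Both TAK1 KO arrays were well below both WT arrays. The log2 difference was -0.65 ± 0.11 (SE, limma adjusted p = 0.00258), or 1.57-fold lower. Under the 12 alternatives it ranged from -0.76 to -0.54. Slc25a45 read 1178.4 and 1057.9 units in TAK1 KO liver and 1369.2 and 1347.9 units in WT liver. Its groups were apart, with a log2 difference of -0.28 ± 0.10 (SE) that missed the threshold (limma adjusted p = 0.0826). Slc25a34, Slc25a35, Slc25a48 and Slc25a53 stayed below the floor on all 4 arrays.

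**Figure D3:**
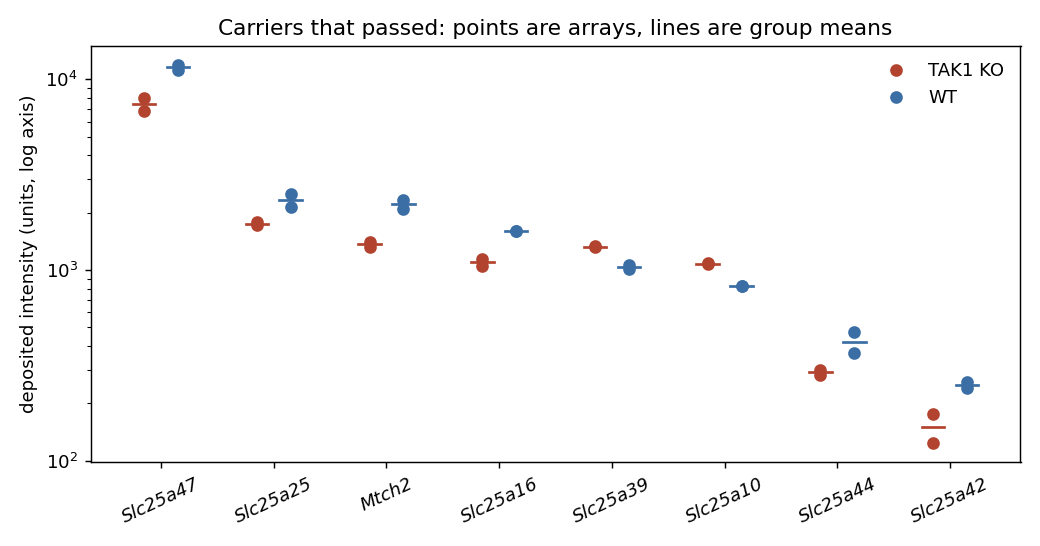
Deposited intensity (y axis, units on a log scale) of the 8 carriers that passed, with TAK1 KO left of WT in each pair, a point per array and a line at each group's mean. The 2 groups do not overlap in any of the 8 genes, and the TAK1 KO arrays lie above the WT arrays only for Slc25a39 and Slc25a10.

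Among the 3 outer membrane members 1 fell, and its probes disagreed. Mtch2, which inserts proteins into the outer membrane as shown for the human protein, read 1319.8 and 1403.1 units in TAK1 KO liver and 2096.2 and 2328.2 units in WT liver on its brightest probe, a log2 difference of -0.70 ± 0.10 (SE, limma adjusted p = 0.00122). A second probe of Mtch2 read 782.2 and 991.7 units in TAK1 KO liver and 867 and 918.9 units in WT liver, and the remaining probe read 743.2 and 831.7 units in TAK1 KO liver and 819.6 and 787.5 units in WT liver. On both of these the groups overlapped, with log2 differences of -0.019 ± 0.12 and -0.031 ± 0.10 (SE). The fall of Mtch2 therefore rests on 1 of 3 probes, and with all 3 averaged the log2 difference of -0.25 did not pass (limma adjusted p = 0.129). Mtch1 read 5052.3 and 5560.1 units in TAK1 KO liver and 4943 and 4942.2 units in WT liver and did not pass (limma adjusted p = 0.602), and Slc25a46 lay below the floor.

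Several probes were present for 13 carriers, and 7 of these had a probe besides the brightest that lay above 100 units on at least 2 arrays. None of these 10 other probes passed when all named probes were tested. For Slc25a3 the second probe read 1358.1 and 1401.4 units in TAK1 KO liver and 1424.9 and 1302.1 units in WT liver, with a log2 difference of 0.018 ± 0.09 (SE), while the brightest gave 0.28. For Slc25a11 the 2 other probes gave -0.25 ± 0.09 and -0.28 ± 0.13 (SE), and for Slc25a38 -0.33 ± 0.11 and -0.21 ± 0.10 (SE), each in the direction of the brightest probe. The other 7 carriers that passed had 1 probe each.

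**Figure D4:**
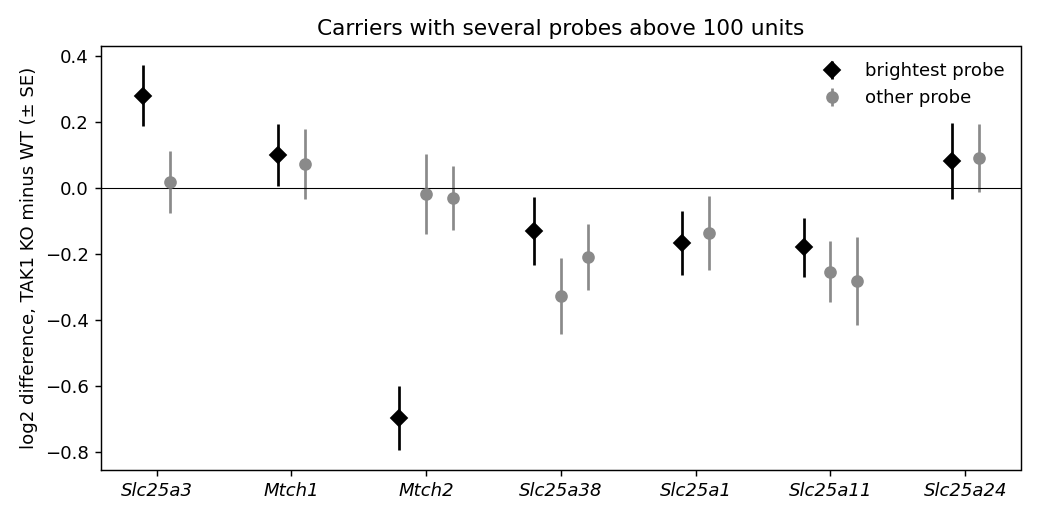
Log2 difference between TAK1 KO and WT liver (y axis, TAK1 KO minus WT, bars are limma's moderated SE, n = 2 per group) for each probe above the floor in the 7 carriers with more than 1 such probe. Black diamonds are the brightest probe and grey circles the others, and Mtch2 is at -0.70 on its brightest probe and at -0.019 and -0.031 on the others.

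The other transporters and channels of the mitochondrial membranes gave 4 rises and 1 fall among 15 measured of 21 listed. In all genes measured 10.5% passed upward and 7.71% downward. Of the 15, 14 lay above the floor on at least 2 arrays, among them all 5 that passed. In all genes above the floor 20.8% passed upward and 15.8% downward. Micu2, a regulator of the mitochondrial calcium uniporter, had the largest rise, with 2305.1 and 2581.6 units in TAK1 KO liver and 1369.2 and 1197.1 units in WT liver (log2 0.93 ± 0.11 SE, limma adjusted p = 0.000430). Tspo, an outer membrane protein also abundant in macrophages, read 2236.8 and 2122.4 units in TAK1 KO liver and 1650 and 1310.3 units in WT liver and rose 1.48-fold. The outer membrane channel Vdac2 rose 1.34-fold and the serine carrier Sfxn1, which is no Slc25a protein, 1.24-fold. Its relative Sfxn5 fell 1.71-fold (log2 -0.78 ± 0.12 SE, limma adjusted p = 0.00226). The list had 3 calls in all without WT replicate 1 and 2 without WT replicate 2.

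The list of import genes showed 1 rise and 0 falls among 20 genes measured of 23. It holds genes of the translocase for proteins with a presequence besides the machinery that brings carriers to the inner membrane. Of the 20, 14 lay above the floor on at least 2 arrays. In all genes above the floor 20.8% passed upward and 15.8% downward. The rise was in Timm50, a receptor of the inner membrane translocase for proteins with a presequence, which carriers mostly lack (log2 0.43 ± 0.10 SE, limma adjusted p = 0.0138), and without either WT array 0 of the 20 passed. Of genes taken as a readout of mitochondrial content and of its regulators, 3 of 26 fell and 0 rose. Of the 26, 24 lay above the floor on at least 2 arrays, among them all 3 that fell, to be read against the same shares. The transcription factor subunit Gabpa fell 1.48-fold, the coactivator Ppargc1b 1.48-fold and the fusion protein Opa1 1.26-fold. The list's median log2 difference was 0.0055, with 14 positive and 12 negative. Its summed intensity was 87255.3 to 89421.4 units in TAK1 KO liver and 77652.3 to 80936.1 units in WT liver. Atp5b weighs on these sums, with 23394.1 and 24653.6 units in TAK1 KO liver and 18671.6 and 20097.7 units in WT liver. The log2 difference of Atp5b, 0.31 ± 0.09 (SE), did not pass (limma adjusted p = 0.0527). The list had 1 call without WT replicate 2 and 5 without TAK1 KO replicate 1 or with quantile normalization added.

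Markers of other liver cells moved in the same samples. Their counts are to be read against all genes measured, of which 10.5% passed upward and 7.71% downward. Above the floor these shares were 20.8% and 15.8%. Of 8 measured macrophage markers 6 rose and 0 fell, and their summed intensity was 10975.1 to 11160.5 units in TAK1 KO liver, against 3941 to 4342 units in WT liver. Lyz2 and Gpnmb weigh on these sums. Lyz2 read 3971.5 and 3947.2 units in TAK1 KO liver and 1222.3 and 1332.3 units in WT liver. Gpnmb read 2510.2 and 2082.2 units in TAK1 KO liver and 71.8 and 66.5 units in WT liver. Gpnmb and Trem2 lay above the floor on the TAK1 KO arrays only. The macrophage marker Clec4f lay above it on all 4 arrays and did not pass (log2 0.31 ± 0.11 SE, limma adjusted p = 0.0937). Cd5l, a marker of resident macrophages, lay below the floor on all arrays. Of 10 stellate cell and fibroblast markers 8 rose and 0 fell. Their sums were 17218 to 20383 units in TAK1 KO liver and 7956 to 8405 units in WT liver. Dcn weighs on these sums, with 11079.3 and 9953.1 units in TAK1 KO liver and 5477.6 and 5781.4 units in WT liver. Col1a1, Pdgfrb and Timp1 lay above the floor on the TAK1 KO arrays only, and the defining marker Lrat was below the floor. Of 10 hepatocyte markers 1 fell, Cyp2e1, and 0 rose, with sums of 160359.5 to 174422.6 units in TAK1 KO liver and 173761 to 177688 units in WT liver. Cyp2e1 weighs on these sums, with 16538.2 and 11432.5 units in TAK1 KO liver and 33028.5 and 33407.4 units in WT liver. The median log2 difference of the 10 markers was -0.012, with 5 positive and 5 negative. Neutrophil markers rose in 3 of 4 cases, markers of dividing cells in 3 of 3 and bile duct markers in 1 of 3, with 0 falls in each, and 1 of 6 endothelial markers fell. None of the 5 T and B cell markers and none of the 5 adipocyte markers passed. No marker of either list, and none of the bile duct, lay above 100 units on at least 2 arrays, which limits what could be seen. Of the 4 neutrophil markers 2 did, and both rose. Among 3 erythroid genes 1 rose and 1 fell. Slc4a1 rose, with 159.6 and 145.4 units in TAK1 KO liver and 123.1 and 95.4 units in WT liver. Alas2, the first enzyme of haem synthesis in red cell precursors, fell. It read 326.2 and 278.7 units in TAK1 KO liver and 727.6 and 664.2 units in WT liver. Hba-a1 did not pass. The part of these shifts in the carriers' differences was not tested.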

How the data were processed

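Biotinylated cRNA of each sample was hybridised to an Illumina array, per the labels' protocols. The authors deposited linear probe intensities that are already normalized between arrays; how this was done is not stated in the labels or files. A second deposited table was not used, because its 4 columns match no sample label. Sample titles gave the groups and the replicate numbers.

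Background was corrected with limma's normexp method (offset 50), values were put on the log2 scale, and TAK1 KO was tested against WT by a two-sided moderated test in limma 3.58.1 under R 4.3.3, with 2 residual and 6.85 prior degrees of freedom. P-values were adjusted by Benjamini-Hochberg over all 16593 genes. Differences on this scale understate changes of dim genes. Of 25697 probes 23978 had 1 gene, and the other 1719 were unnamed. Symbols were updated to RefSeq GRCm38.p6, where 11 identifiers did not match. The probes' sequences were not used, so cross-hybridisation among these related genes was not examined.

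The number of arrays, 2 per group, limits the precision; an exact permutation test could not go below p = 0.333, so none was run. No batch is named in the labels. Every carrier is named; arrays are given for those that passed and for the brightest, and for others above the floor. The members, lists, floor and motifs were chosen with earlier results of these data known. The procedure was run on simulated data drawn from limma's own model, with far fewer changed genes than passed here. That run cannot show how the procedure behaves where the model does not hold. Alternatives covered background, normalization, dim probes, probe choice, prior, weights, a replicate block and leaving out each array.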

Additional observations from a re-analysis of the deposited data

How the results depend on the processing

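The same 8 carriers passed, with no other, without background correction, among genes above the floor only, with a robust prior, with array weights and with the replicate number as a block. The replicate block gave 3067 genes, 2 rises and 6 falls among the carriers; the deviations of same-numbered arrays correlated at 0.045 over all genes, so the numbers are not taken as pairs. With a normexp offset of 16 in place of 50 the rises numbered 0 and the falls 4; other mitochondrial transport genes that passed then numbered 3 and import genes 0. With quantile normalization 5 mitochondrial content genes passed. Leaving out 1 array, which leaves the spread to the pair of the other group, gave 1800 to 3304 genes in all (main 3022), 0 to 2 carriers up, 3 to 9 down, 2 to 5 transport genes, 0 to 2 import genes and 1 to 5 content genes; the 9 falls came without TAK1 KO replicate 1 and the 3 without WT replicate 2. No carrier that passed changed direction. Among those that did not, with 1 array left out Slc25a33 ranged from -0.38 to 0.11, Slc25a28 from -0.096 to 0.16, Slc25a12 from -0.18 to 0.017, Slc25a24 from -0.072 to 0.23 and Slc25a14 from -0.18 to 0.050. The cause was not tested. The carriers' median stayed within -0.16 to -0.071. For carriers below the floor, signal over background limits what could be seen.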
